A study of Homo sapiens with 12 samples.

Results

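The HOXA cluster genes studied here are HOXA3, HOXA4, HOXA5, HOXA6, HOXA7, HOXA9, HOXA10, HOXA11 and HOXA13, taken by symbol as 9 of the 25268 gene symbols measured. They lie on the minus strand of chromosome 7, from chr7:27107010-27200091 in the RefSeq annotation of GRCh38.p14. RNA came from HEK293 cells, a human embryonic kidney line, in 4 groups of 3 libraries: total and polysomal RNA of cells transiently transfected with 2 µg of pCMV6-HIS-HA-RBMX, which drives tagged RBMX from a viral promoter, and the same fractions of cells given the mock empty vector. The labels call the mock-transfected control cells wild type. They number 3 replicates per group, called cultures here, which by the study's methods are biological replicates. Cells of both groups were transfected with Lipofectamine2000 and treated with cycloheximide before lysis. Lysates were separated on a sucrose gradient. Polysomal RNA came from the fractions with polysomes, and total RNA was a pool of a fixed share of every fraction.

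HOX genes encode homeodomain transcription factors that give body segments their identity along the head to tail axis. Within a cluster, genes at the 3′ end such as HOXA3 are active in anterior regions and genes at the 5′ end such as HOXA13 in posterior ones. Trithorax complexes keep active HOX genes on, Polycomb complexes keep silent ones off, and PBX and MEIS proteins bind DNA together with many HOX proteins. RBMX is an RNA-binding protein with roles in splicing, and by the study's account it can lie in the nucleus and in the cytoplasm. The study asked whether it binds and controls homeotic mRNAs, at the level of abundance, exon usage or polysome loading. Exon usage and binding cannot be read from FPKM values per gene and were not examined here.

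The cluster carries its own microRNA gene. In RefSeq, MIR196B lies between HOXA9 and HOXA10 at chr7:27169480-27169563 on the minus strand (GRCh38.p14), and miR-196 is known to target several HOX mRNAs. Its mature sequence is shown with that of miR-196a-5p, followed by stretches of HOXA mRNAs that match the seed both share, because these sites are common in the cluster. Capitals mark the seed, bases 2 to 8, in the microRNAs and the matching bases in the mRNAs.
hsa-miR-196b-5p: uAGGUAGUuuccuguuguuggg
hsa-miR-196a-5p: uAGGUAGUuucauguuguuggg
HOXA5 3′ UTR: atttttattcaaACTACCTatattccttgt
HOXA7 3′ UTR, first site: cgcgtccaaaatACTACCTagcacaggcct
HOXA7 3′ UTR, next site: aggcacccccaaACTACCTatgtatccagc
HOXA9 3′ UTR, first site: aaaaggaaagaaACTACCTttttataatgc
HOXA9 3′ UTR, last site: gtgcagaaggttACTACCTagggtttatgc

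The microRNA sequences are from RefSeq and the mRNA stretches from 1 coding transcript per gene in GENCODE v29. The letters ACTACCT were found in the 3′ UTR of 3 of the 9 members, once in HOXA5, at 4 places in HOXA7 and at 2 in HOXA9. HOXA6 had a match in its coding sequence. Of 12501 genes with a tested value and a coding transcript, 888 (7.10%) held the letters in the 3′ UTR. MIR196B itself was listed at 0 FPKM in all 12 libraries. Its hairpin of 84 bases is short for these libraries, so this value says nothing about the mature microRNA.

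Upstream sequence was available for 8 of the 9 members, all but HOXA5, in the RefSeq promoter windows. The 250 bases before each start held a median of 23 CpG dinucleotides in the members, against 11 over 27305 promoters. CpG-rich promoters are a known trait of genes under Polycomb and trithorax control. The count ran from 11 in HOXA3 and HOXA11 to 40 in HOXA13. The letters CCAAT on either strand were in 7 of the 8 windows (33.0% of all promoters) and TATAAA on either strand in 3 of the 8, those of HOXA3, HOXA9 and HOXA10 (11.1% of all promoters). Some of these windows are exon sequence in GENCODE v29. All 250 bases lie in exons of coding genes for HOXA10, and in exons of noncoding genes for HOXA3 and HOXA11. The windows of HOXA4, HOXA7 and HOXA13 hold 42, 79 and 15 bases of coding-gene exons, and those of HOXA6 and HOXA9 hold 0. The window of HOXA9, the member with the highest median level, is shown with its 20 CpG in capitals, followed by the stretch that separates the starts of HOXA11 and its antisense RNA HOXA11-AS, which are transcribed away from each other and were both measured. Both are on the minus strand of GRCh38.p14, 5′ to 3′ towards the HOXA gene.
HOXA9 upstream, chr7:27165538-27165787: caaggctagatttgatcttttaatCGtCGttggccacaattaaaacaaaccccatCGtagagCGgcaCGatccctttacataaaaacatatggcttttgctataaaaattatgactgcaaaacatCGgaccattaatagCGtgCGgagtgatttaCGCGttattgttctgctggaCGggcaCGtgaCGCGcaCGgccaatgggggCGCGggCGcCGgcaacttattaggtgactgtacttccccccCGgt
HOXA11 to HOXA11-AS, chr7:27185233-27185407: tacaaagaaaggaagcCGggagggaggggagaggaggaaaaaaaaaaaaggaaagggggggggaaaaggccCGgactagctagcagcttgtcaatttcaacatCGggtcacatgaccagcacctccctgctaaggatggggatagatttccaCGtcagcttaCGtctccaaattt

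The stretch of 175 bases between HOXA11 and HOXA11-AS held 5 CpG. In the gene models of GENCODE v29 both genes share 717 exon bases.

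The deposited values are FPKM, fragments scaled by transcript length and by the size of the library, so that levels can be compared between genes. Sequencing depth is unknown, and no counting interval is given. RBMX itself, the check of the labels, had 107.9 to 147.3 FPKM in control total, 87.4 to 147.8 in control polysomal, 1460 to 2073 in RBMX total and 1072 to 1328 in RBMX polysomal RNA. All 8 markers set for HEK293 cells had a mean of at least 0.5 FPKM. Of 11 markers of other cells only COL1A1 did, and TYR was at 0 in all 12 libraries. Small RNA genes held 40.6% to 72.9% of the summed FPKM of a library, and without them replicates of a group had Spearman correlations of 0.976 to 0.999 across 14159 genes. With them, across the 14676 genes of the main tests, the correlations were 0.924 to 0.953. Control replicate 3 stood apart in both fractions. Its VIM level was 248.2 FPKM in total and 217.3 in polysomal RNA, against 485.7 to 576.8 in the other 10 libraries.

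All 9 members were measured above 0 in every library and passed the filter for testing, a mean of at least 0.5 FPKM. HOXA9 and HOXA10, known for roles in limb, reproductive tract and blood development, were the most abundant, with medians of 55.97 and 51.8 FPKM over the 12 libraries. HOXA9 ran from 39.5 to 75.0 FPKM and HOXA10 from 43.1 to 60.7. Their ranges overlapped, and HOXA9 was the higher of the pair in 5 of 12 libraries, the 3 RBMX total libraries and both libraries of control replicate 3. Together they made up 50.8% to 60.1% of the summed FPKM of the members.

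HOXA5, known for its part in lung and axial skeleton development, followed with a median of 20.7 FPKM (17.8 to 22.4) and did not overlap the genes above or below it in the order. HOXA11, required with HOXA10 in the uterus and limb, had a median of 16.3 (15.0 to 17.4) and was the steadiest member, its highest library being 1.16 times its lowest. HOXA3, a gene of the pharyngeal arches, thymus and parathyroid, had 12.9 (11.0 to 15.5). HOXA7 had 12.1 (9.16 to 13.6) and HOXA4 11.2 (9.76 to 12.1), and ranges next to each other in the order overlapped from HOXA11 down to HOXA4. HOXA13, the posterior gene of digits and genital tubercle, had 7.26 (5.84 to 9.15) and HOXA6 5.66 (3.65 to 6.25). These ranges overlapped each other, and that of HOXA13 lay below that of HOXA4. HOXA13 lay above HOXA6 in 11 of 12 libraries. The levels did not follow the position in the cluster, with the highest at HOXA9 and HOXA10 and the lowest at HOXA6 and HOXA13. The median coefficient of variation among 3 replicates was 6.98% over the 36 combinations of member and group, against 9.39% over all genes tested.

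**Figure D1:**
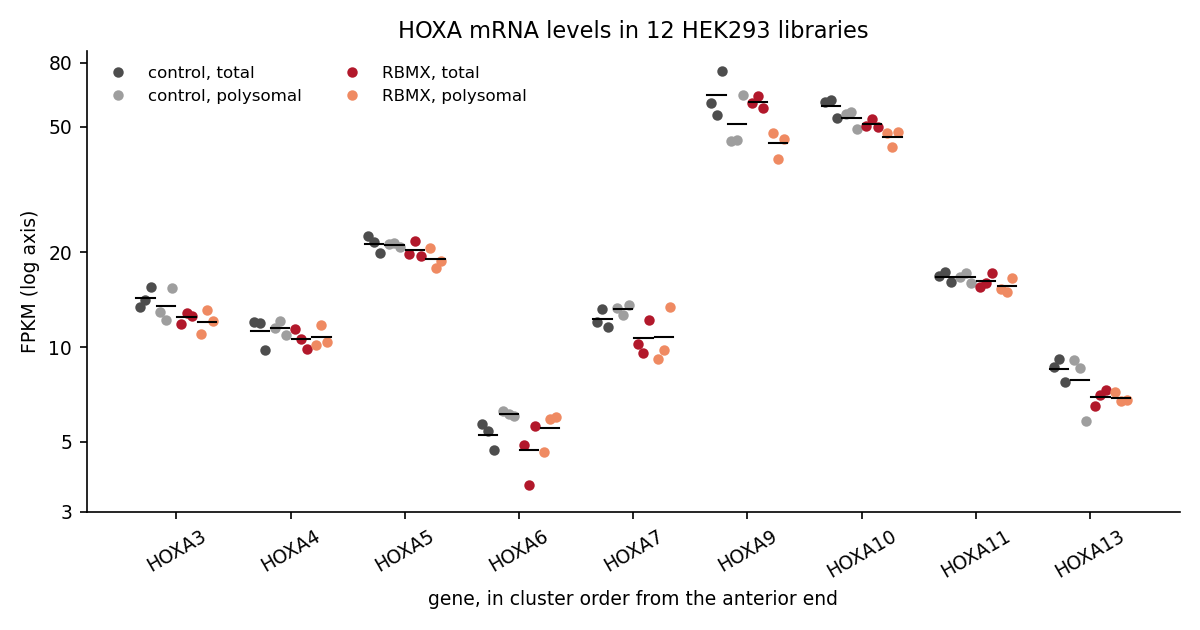
FPKM (log axis) of the 9 HOXA genes in cluster order, 3 libraries per group as points and the group mean as a line. HOXA9 and HOXA10 lie between 39.5 and 75.0 FPKM in every library, and the other members between 3.65 and 22.4.

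Exons of the members overlap other genes of the locus. The library kit does not mark strand, so fragments of a gene and of its antisense partner cannot be told apart where both have exons. Among the genes listed in the table, by GENCODE v29, HOXA7 shared 62.5% of its exon bases with HOXA-AS3, HOXA6 39.3% with HOXA-AS3, HOXA11 31.1% with HOXA11-AS, and HOXA10 and HOXA9 16.4% and 13.9% with HOXA10-AS. HOXA3, HOXA4 and HOXA13 shared 1.69% to 6.69%, and HOXA5 none. Of genes not listed, the antisense HOXA-AS2 shared 14.5% of the exon bases of HOXA4 and 8.69% of those of HOXA3. The largest share on the same strand was 31.0% of HOXA4, with AC004080.6, also not listed. The table also lists HOXA10-HOXA9, a read-through transcript over both genes, at 0.183 to 0.998 FPKM.

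The first comparison asked whether raised RBMX changed the abundance of HOXA mRNAs. In total RNA 0 of the 9 members passed the test (limma on log2(FPKM + 1), Benjamini-Hochberg adjusted p up to 0.05 over 14676 genes), where 0.164% of all genes did. The means of all 9 were lower in RBMX-overexpressing cells, by 3.04% to 18.4% of the control FPKM, and 3 had an unadjusted p under 0.05, as 18.8% of all genes tested did. The median log2 fold change of the members was -0.14, against 0 over all genes tested. In bulk RNA, fewer cells that express a gene and less RNA of it per cell cannot be told apart.

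In total RNA HOXA10 stood at 60.1, 60.7 and 53.3 FPKM in control cells and at 50.4, 53.1 and 49.8 with RBMX. All 3 RBMX libraries lay below all 3 control libraries, the nearest pair 53.1 and 53.3. The log2 fold change was -0.18 (standard error 0.069, 95% interval -0.35 to -0.01, limma adjusted p = 0.256).

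HOXA13 had 8.65, 9.15 and 7.72 FPKM in control and 6.47, 7.02 and 7.32 in RBMX total RNA. The groups did not overlap here either, and this was the largest difference of the members in this fraction. The log2 fold change was -0.26 (standard error 0.083, 95% interval -0.46 to -0.05, limma adjusted p = 0.209).

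HOXA3 had 13.4, 14.1 and 15.5 FPKM in control and 11.8, 12.9 and 12.6 in RBMX total RNA, again without overlap. Its log2 fold change was -0.19 (standard error 0.073, 95% interval -0.37 to -0.01, limma adjusted p = 0.250). Control replicate 3 was the highest library for HOXA3 and the lowest control library for HOXA10 and HOXA13. The members lower without overlap were thus 3 of 9, while 15.4% of all genes tested were lower without overlap. No member was higher without overlap.

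The other 6 members overlapped between the vectors. HOXA7, HOXA6, HOXA4, HOXA5, HOXA9 and HOXA11 had log2 fold changes of -0.19, -0.14, -0.07, -0.07, -0.06 and -0.04, with limma adjusted p from 0.373 to 0.820. The interval of HOXA11, the narrowest, ran from -0.20 to 0.11, and that of HOXA6, the widest, from -0.51 to 0.23. For HOXA9 the control libraries spread from 54.5 to 75.0 FPKM around the RBMX libraries at 57.4 to 62.8. Without control replicate 3 its log2 fold change was 0.07, and 8 of 9 members were lower. Single libraries moved the other small differences too. HOXA6 was at -0.00065 without RBMX replicate 2 and -0.26 without RBMX replicate 3, HOXA4 at -0.02 without RBMX replicate 3 and -0.16 without control replicate 3, and HOXA11 at -0.01 without RBMX replicate 1 and -0.08 without RBMX replicate 3. HOXA5 ran from -0.11 to -0.03 and HOXA7 from -0.28 to -0.12 with 1 library left out.

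In polysomal RNA 0 of 9 members passed the limma test (0.0477% of all genes did) and 0 had an unadjusted p under 0.05 (11.7% of all genes did). The means of all 9 were again lower with RBMX, by 6.14% to 18.0% of the control FPKM, with a median log2 fold change of -0.15 against 0 over all genes. Both vectors were compared within each fraction, and the total and polysomal libraries of a culture are not independent, so the same direction in both is no independent repeat. Without control replicate 3 all 9 were still lower, with a median of -0.15.

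HOXA10 had 54.8, 55.7 and 49.2 FPKM in control polysomal and 47.9, 43.1 and 48.1 in RBMX polysomal RNA. As in total RNA, every RBMX library lay below every control library. The log2 fold change was -0.19 (standard error 0.084, 95% interval -0.40 to 0.02, limma adjusted p = 0.425). HOXA10 was the only member lower without overlap in both fractions, which was so for 7.32% of all genes tested.

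HOXA5 had 21.2, 21.4 and 20.8 FPKM in control and 20.6, 17.8 and 18.7 in RBMX polysomal RNA. HOXA6 had 6.25, 6.11 and 6.03 in control and 4.66, 5.92 and 5.98 in RBMX polysomal RNA. These were the other 2 members lower without overlap (12.5% of all genes), the nearest libraries of both vectors being at 20.6 and 20.8 FPKM for HOXA5 and at 5.98 and 6.03 for HOXA6. Their log2 fold changes were -0.15 and -0.14 (limma adjusted p = 0.470 and 0.599).

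HOXA7, which patterns the thoracic axial skeleton, had the largest difference of the members in polysomal RNA, with 13.3, 12.6 and 13.6 FPKM in control and 9.16, 9.82 and 13.4 in RBMX cells. RBMX replicate 3 lay among the control libraries while the other 2 lay below them. The log2 fold change was -0.28 (standard error 0.15, 95% interval -0.65 to 0.08, limma adjusted p = 0.474). HOXA13 had 9.12, 8.56 and 5.84 FPKM in control and 7.20, 6.73 and 6.77 in RBMX polysomal RNA, so that control replicate 3 was the lowest of the 6. Its log2 fold change was -0.14 (limma adjusted p = 0.715), and -0.32 without that library, -0.03 without control replicate 1 and -0.07 without control replicate 2.

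The remaining members overlapped between the vectors in polysomal RNA. HOXA9 had 45.0, 45.4 and 63.2 FPKM in control and 47.8, 39.5 and 45.7 in RBMX cells, where the high library was again control replicate 3 (log2 fold change -0.19, 95% interval -0.59 to 0.21, limma adjusted p = 0.622). HOXA3 had 12.95, 12.2 and 15.4 FPKM in control and 11.0, 13.1 and 12.1 in RBMX cells (log2 fold change -0.15, limma adjusted p = 0.596). HOXA4 had 11.5, 12.1 and 10.9 in control and 10.2, 11.7 and 10.4 in RBMX cells (log2 fold change -0.09, limma adjusted p = 0.650). HOXA11 had 16.7, 17.2 and 15.9 FPKM in control and 15.3, 15.0 and 16.5 in RBMX cells (log2 fold change -0.09, 95% interval -0.26 to 0.09, limma adjusted p = 0.619). With 1 library left out HOXA9 ran from -0.27 to -0.03 (without control replicate 3), HOXA3 from -0.22 to -0.06 (also without control replicate 3) and HOXA6 from -0.19 to -0.04 (without RBMX replicate 1).

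**Figure D2:**
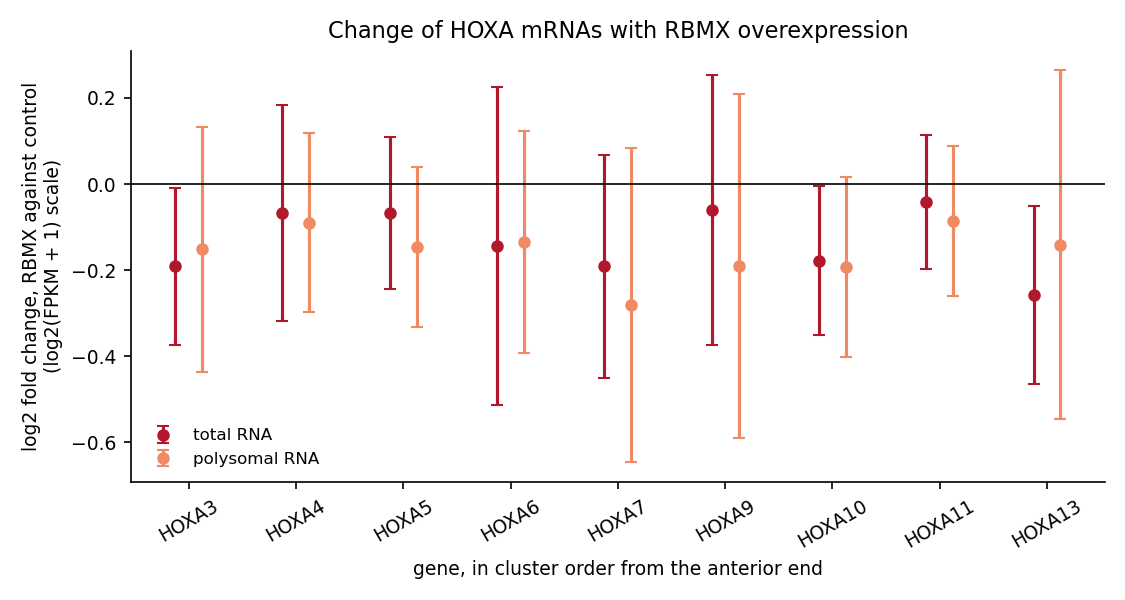
Log2 fold change of RBMX against control cells (log2(FPKM + 1) scale) for each HOXA gene in total and polysomal RNA, points with 95% limma intervals. All 18 points lie below 0, between -0.28 and -0.04, and 15 of the 18 intervals reach above 0.

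The summed FPKM of the 9 members was 207.9 to 213.6 in control total and 190.1 to 197.3 in RBMX total RNA. In polysomal RNA it was 190.9 to 200.9 in control and 162.7 to 177.7 in RBMX cells. The sums of the members did not overlap between the vectors in either fraction. In polysomal RNA the summed HOXB genes did not overlap either, at 137.9 to 142.9 in control and 120.8 to 130.8 in RBMX cells. The same held there for the summed HOXC genes (83.43 to 87.24 and 72.4 to 75.24), while the HOXD sums overlapped. In total RNA the HOXB, HOXC and HOXD sums each overlapped. The sum over all HOX clusters, HOXA included, did not overlap in either fraction. The sums of the members are dominated by HOXA9 and HOXA10 and are given as a description.

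A further comparison asked whether the effect of RBMX differed between polysomal and total RNA. This difference was tested over all 12 libraries, and 0 of 9 members passed (limma, against 0.0204% of all genes). At an unadjusted p under 0.05 there were 0 of 9, against 0.6% of all genes. The difference in log2 fold change ran from -0.13 in HOXA9 (95% interval -0.61 to 0.35) to 0.12 in HOXA13 (95% interval -0.30 to 0.53). The narrowest interval was that of HOXA11, -0.24 to 0.15 around -0.04. The interval of each member held a value as large as its own change with RBMX in either fraction. These intervals are from a fit that did not pair the libraries of a culture. With the culture as a block, 0 of 9 members had an unadjusted p under 0.05.

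The last comparison set polysomal against total RNA within each vector. FPKM are scaled within each library, so this ratio is relative to other genes and is not the share of an mRNA on polysomes. The pool used as total RNA also holds the polysomal fractions. In control cells 0 of 9 members passed (limma, against 0.0818% of all genes), none at an unadjusted p under 0.05 either (0 of 9, against 8.04% of all genes), and 0 were lower without overlap (7.31% of all genes). With the replicate number as a block, 3 of 9 had an unadjusted p under 0.05 there and none passed (lowest limma adjusted p = 0.173). The share of all genes with such a p under that block is not given. In RBMX cells 0 of 9 passed (1.34% of all genes passed). HOXA9 was the 1 member with an unadjusted p under 0.05, where 23% of all genes had one. HOXA9 stood lowest among the members in both vectors and HOXA6 highest.

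HOXA9 in control cultures 1, 2 and 3 had 59.7, 54.5 and 75.0 FPKM in total RNA and 45.0, 45.4 and 63.2 in polysomal RNA. In RBMX cultures it had 59.5, 62.8 and 57.4 in total and 47.8, 39.5 and 45.7 in polysomal RNA. The polysomal library was the lower of the pair in each of the 6 cultures, by a ratio of 0.629 to 0.842, although in control cells the groups overlapped through the high values of replicate 3. The log2 fold change was -0.30 in control cells (95% interval -0.76 to 0.16, limma adjusted p = 0.739) and -0.43 in RBMX cells (95% interval -0.64 to -0.22, limma adjusted p = 0.0865). In RBMX cells HOXA9 and HOXA10 were the 2 members lower without overlap (16.2% of all genes), and the limma adjusted p of HOXA9 was 0.0467 when small RNA genes were left out of the table. With the replicate number as a block it was 0.173 in control and 0.186 in RBMX cells.

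By the extraction notes both libraries of a culture come from the same gradient, although the transfection notes speak of 2 dishes, and a fit over all 6 cultures with the culture as a block was added after seeing the data. It called 23.9% of all genes and 2 of the 9 members, HOXA9 and HOXA10, both lower in polysomal RNA, where 13.0% of all genes were called lower. HOXA9 changed by -22.4% on this scale (log2 fold change -0.37, standard error 0.058, limma adjusted p = 0.0115). It passed under 14 of 15 alternatives of this fit and missed without the block (limma adjusted p = 0.0521). HOXA10 changed by -8.63% (log2 fold change -0.13, standard error 0.038, limma adjusted p = 0.0484), with a polysomal to total ratio of 0.812 to 0.967 in the 6 cultures. Its call was lost under 10 of the 15 alternatives, up to an adjusted p of 0.136, among them without any one of control replicates 1 to 3 or RBMX replicates 1 and 3.

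HOXA11 was also lower in polysomal RNA in 6 of 6 cultures, with a mean change of -2.08% (log2 fold change -0.03, limma adjusted p = 0.385), and 16.5% of all genes were lower in all 6. No member was higher in all 6, as 16.0% of all genes were. HOXA6 was higher in polysomal RNA in 5 of 6 cultures, at ratios of 0.950 to 1.62, with a log2 fold change of 0.19 in this fit (limma adjusted p = 0.122). In control cells its polysomal libraries at 6.03 to 6.25 FPKM lay above its total libraries at 4.71 to 5.69, as was so for 7.63% of all genes. HOXA3, HOXA4, HOXA5, HOXA7 and HOXA13 had log2 fold changes from -0.06 to 0.05 in the fit over all cultures and took both directions among them.

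**Figure D3:**
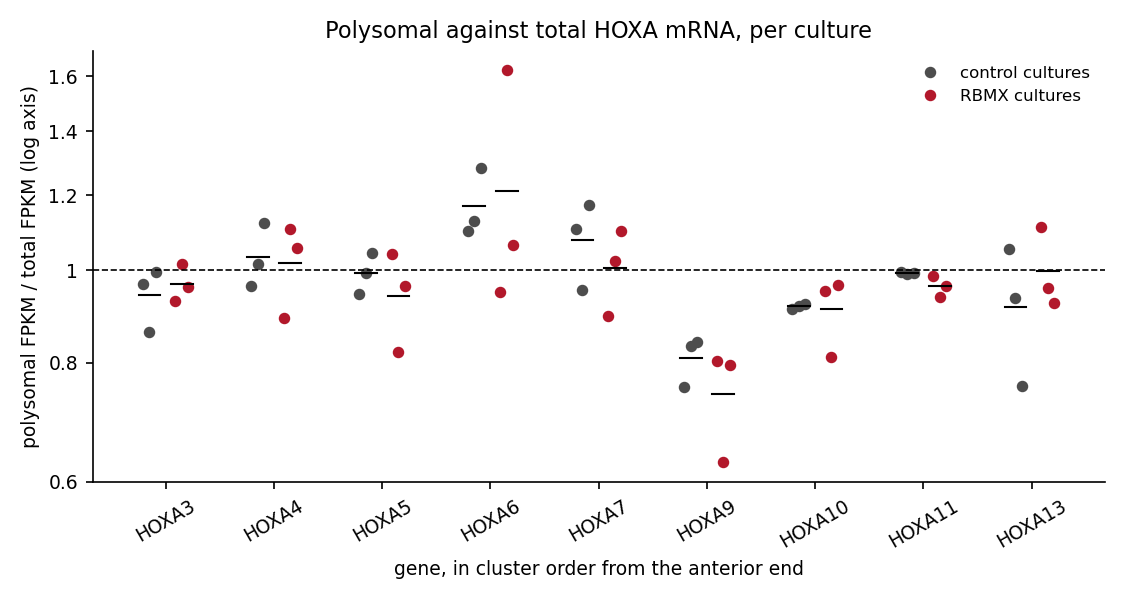
Ratio of polysomal to total FPKM (log axis) for each HOXA gene in the 3 control and 3 RBMX cultures, lines at the mean of 3 and a dashed line at 1. HOXA9 lies at 0.629 to 0.842 in the 6 cultures and HOXA10 at 0.812 to 0.967, while HOXA6 reaches 1.62 in RBMX replicate 2.

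CCAG and CGAC are the cores of a motif in conserved 5′ elements of homeotic mRNAs through which RBMX came under study. Here they were counted on the sense strand of the 5′ UTR and coding sequence of 1 GENCODE v29 transcript per gene. The transcript used for HOXA10 has 0 bases of 5′ UTR, so its count covers coding sequence alone, and that of the other members has 25 to 339. Most of the sequence searched was coding, 693 to 1332 bases per member, and the 5′ UTR was not counted alone. The density of both motifs was 20.2 per kilobase in HOXA9, above that of most of the 12501 transcripts (percentile 98.25), and 9.73 in HOXA10 (percentile 46.5). The other members lay between percentile 49.35 in HOXA13 and 91.24 in HOXA4, with HOXA6 at 85.58 and HOXA7 at 82.2. The median density of the members was 13.7 and that of all transcripts 10.1. These counts describe letters, and their part in any change was not tested.

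Of 15 other symbols set for the HOXA locus, 10 were listed in the table and 6 passed the filter. HOXA2, a gene of the second pharyngeal arch, had 2.47 to 4.81 FPKM. Among the noncoding genes HOTAIRM1, which lies at the anterior end of the cluster, had 12.6 to 45.8 FPKM, HOXA11-AS 10.6 to 14.9, HOXA10-AS 6.42 to 11.6 and HOXA-AS3 0.720 to 1.21. HOTTIP, a noncoding RNA beside HOXA13 known to bind the WDR5 subunit of MLL complexes, had 0.334 to 0.626 FPKM. EVX1 and EVX1-AS, beyond the posterior end, stayed at 0.0364 to 0.189 and 0.0596 to 0.329.

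None of the 6 tested passed in any of the 4 comparisons within a vector or fraction or in the difference (limma). At an unadjusted p under 0.05 there were 1 in total and 2 in polysomal RNA for RBMX against control, and 1 in control and 1 in RBMX cells for polysomal against total RNA, where the shares of all genes were 18.8%, 11.7%, 8.04% and 23%. In total RNA HOXA10-AS lay the other way from the members, with 7.67 to 8.63 FPKM in control and 8.79 to 11.6 in RBMX cells (log2 fold change 0.31, limma adjusted p = 0.236), while HOXA10, with which it shares exon bases, had lower values. In polysomal RNA the groups of HOXA10-AS overlapped (log2 fold change 0.06, limma adjusted p = 0.923). HOXA2 had log2 fold changes of 0.16 in total and 0.04 in polysomal RNA, also with overlap. In polysomal RNA HOXA-AS3, which shares exon bases with HOXA6 and HOXA7, had a log2 fold change of -0.22 and HOXA11-AS one of -0.26 (limma adjusted p = 0.400 and 0.403), both lower without overlap. HOTAIRM1, at 23.7 to 37.5 FPKM in control and 12.6 to 23.4 in RBMX polysomal RNA, was the third of the 6 without overlap (12.5% of all genes) and had the largest difference, a log2 fold change of -0.61 (limma adjusted p = 0.435).

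HOTTIP had 0.544 to 0.626 FPKM in control total and 0.360 to 0.404 in RBMX total RNA, and 0.429 to 0.589 against 0.334 to 0.395 in polysomal RNA. It was lower without overlap in both fractions, as 7.32% of the genes in the main tests were. Its mean was under the filter, and with the filter at 0.1 FPKM its log2 fold changes were -0.19 and -0.15 (limma adjusted p = 0.143 and 0.373), which understate the change of so low a gene. HOXA13, its neighbour, shares 86 exon bases with it.

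The HOXA members were also set beside the genes of the other HOX clusters in paralogue groups 3 to 13, the groups the members span. The 9 members held 34.9% to 39.2% of the summed FPKM of these genes in a library. HOXA9 and HOXA10 had the highest mean FPKM among them, followed by HOXB9 (35.8 to 49.5), whose range overlapped both. HOXA10 lay above its paralogue HOXD10 (27.6 to 36.1) and HOXA5 above HOXB5 (4.85 to 8.19) without overlap, while HOXA11 lay below HOXD11 (22.6 to 26.8). In total RNA the median log2 fold change with RBMX was -0.14 over the 9 HOXA members, 0.09 over 8 HOXB genes, -0.07 over 8 HOXC genes and -0.03 over 7 HOXD genes. In polysomal RNA it was -0.15, -0.05, -0.19 and -0.0061 in the same order. None of these 32 genes passed the limma test in either fraction, with 10 at an unadjusted p under 0.05 in total and 6 in polysomal RNA (18.8% and 11.7% of all genes), and the difference between clusters was not tested.

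**Figure D4:**
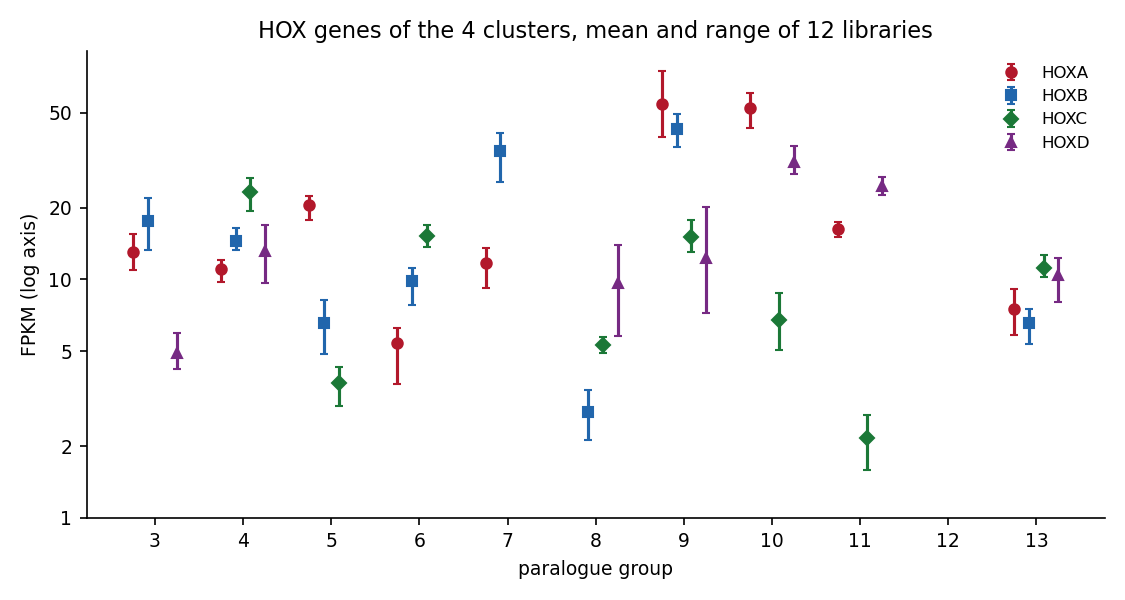
Mean FPKM (log axis) of the HOX genes of paralogue groups 3 to 13 that passed the filter, by group, with bars from the lowest to the highest of 12 libraries. In groups 5, 9 and 10 the HOXA member has the highest mean, 20.4, 54.6 and 52.2 FPKM, while in groups 3, 4, 6, 7, 11 and 13 a gene of another cluster does.

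Lists of regulators and neighbours were read in the same fits, where 18.8% of all genes in total and 11.7% in polysomal RNA had an unadjusted p under 0.05 with RBMX. Of 9 PBX, MEIS and PKNOX cofactors 0 passed with RBMX in either fraction, with 1 at an unadjusted p under 0.05 in total RNA (PBX3, log2 fold change -0.33, limma adjusted p = 0.207) and 2 in polysomal RNA. Of 15 trithorax and MLL genes 0 passed, with 1 unadjusted in total RNA (MLLT3, -0.19, limma adjusted p = 0.244) and 0 in polysomal RNA. Of 27 Polycomb genes 0 passed with RBMX, with 6 unadjusted in total and 3 in polysomal RNA. PCGF1, a subunit of a variant Polycomb complex, was the only gene of these lists that passed in any comparison. It was lower in polysomal than in total RNA of RBMX cells (log2 fold change -0.54, limma adjusted p = 0.0140), where 1.34% of all genes passed. Of 14 upstream regulators 11 were tested and 0 passed, with RARB, a retinoic acid receptor, lowest in p in both fractions (log2 fold change -0.27 and -0.25, limma adjusted p = 0.170 and 0.406).

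Of 8 genes that flank the cluster 0 passed, with 4 unadjusted in total and 2 in polysomal RNA. The shares over all genes were 18.8% and 11.7%. HIBADH, JAZF1 and SNX10 were lower without overlap in both fractions (7.32% of all genes), with log2 fold changes from -0.49 to -0.27 and limma adjusted p of 0.165 to 0.176 in total and 0.400 to 0.425 in polysomal RNA. NFE2L3, the fourth with an unadjusted p under 0.05 in total RNA, was higher there with overlapping groups (log2 fold change 0.26, limma adjusted p = 0.256), and HNRNPA2B1 had 0.32 (limma adjusted p = 0.490). The median log2 fold change of the flanking genes with RBMX was -0.16 in total and -0.14 in polysomal RNA, beside -0.14 and -0.15 for the HOXA members.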

How the data were processed

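RNA-seq of 12 HEK293 libraries was analysed, 3 each of total and polysomal RNA from mock and RBMX-transfected cells, grouped by their labels, with 0 columns left unmatched. The authors deposited FPKM values for 25268 gene symbols. Per the labels' processing notes the tools were CASAVA 1.8, TopHat2 2.0.13, Cufflinks 2.2.1 and Cuffnorm with hg19, and libraries were made with the TruSeq RNA kit from 500 ng of RNA. The study's text describes another route, with counts on hg38 and DESeq2, which was not used here since FPKM values are not counts. Depth per library is unknown.

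Tests were run on log2(FPKM + 1). limma 3.58.1 in R 4.3.3 (lmFit, eBayes with trend, two-sided) was run on the 14676 genes with a mean of at least 0.5 FPKM and adjusted by Benjamini-Hochberg with a threshold of 0.05. Each comparison used its own 6 libraries, the difference between fractions all 12. A fold change on this scale understates low genes. With 3 against 3 no exact permutation p is under 0.1. The scripts were tested on simulated data.

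Named were the 9 members, RBMX, every listed gene of the HOXA locus except 1 that is not reported here, and up to 3 genes of each other list by change among those that passed or by p. The members and lists were chosen with earlier results of these data known. VIM and the paralogues HOXB5, HOXB9, HOXD10 and HOXD11 were named after their values were seen. The flanking genes NFE2L3 and HNRNPA2B1 were named beyond the limit of 3 per list.

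Total and polysomal RNA of a culture come from 1 gradient by the extraction notes, which pairs them. The transfection notes speak of 2 dishes, so this pairing rests on the extraction notes. Once each library's group mean was removed, the 2 libraries of a culture correlated by 0.623, 0.723 and 0.847 in control and 0.230, 0.0257 and 0.692 in RBMX cultures without small RNA genes, and by 0.00177 to 0.311 with them. Without small RNA genes, total and polysomal libraries crossed between replicates 1 and 2 correlated by 0.671 and 0.656 in control cells. In RBMX cells these crossed values were 0.431 and 0.512. Replicate 3 crossed with another replicate gave -0.829 to -0.322 in both vectors. These values therefore do not show which libraries of replicates 1 and 2 belong together.

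Sequences and positions are from RefSeq (GRCh38.p14) and GENCODE v29, not from the build of the FPKM values, and were matched by symbol. Python 3.11.15 and matplotlib 3.10.9 were used for values, sequences and plots. Alternatives were another pseudocount, other filters, median-ratio and quantile scaling, no trend, no small RNA genes, a replicate block, all 12 libraries in one fit and each library left out. Leaving out control replicate 3 in both fractions and the fit over 6 cultures were chosen after seeing the data.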

Additional observations from a re-analysis of the deposited data

How the results depend on the processing

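With RBMX against control, no member passed and the 9 kept their direction under each alternative in polysomal RNA, and in total RNA with 1 exception, HOXA9, whose log2 fold change was -0.158 to 0.0692 with single libraries left out. In the other comparisons members near 0 turned sign, and the cause was not tested. For polysomal against total RNA in control cells, leaving out libraries gave -0.049 to 0.0858 for HOXA4, -0.0551 to 0.0269 for HOXA5, -0.0368 to 0.0199 for HOXA11 and -0.231 to 0.0518 for HOXA13. Quantile normalization gave 0.00824 for HOXA5 and 0.0119 for HOXA11, and leaving out control replicate 3 in both fractions gave -0.0154 for HOXA4. In RBMX cells leaving out libraries gave -0.0996 to 0.0155 for HOXA3, -0.0418 to 0.0653 for HOXA4, -0.149 to 0.104 for HOXA7 and -0.0492 to 0.0284 for HOXA13, and HOXA13 was at 0.000448 with median-ratio rescaling and 0.0157 with quantile normalization. For the difference between fractions it gave -0.0272 to 0.132 for HOXA3, -0.0814 to 0.0662 for HOXA4, -0.134 to 0.121 for HOXA6, -0.244 to 0.0093 for HOXA7, -0.259 to 0.0287 for HOXA9, -0.0696 to 0.0441 for HOXA10 and -0.0581 to 0.225 for HOXA13. Quantile normalization gave 0.0208 for HOXA10, and leaving out control replicate 3 in both fractions gave 0.0326 for HOXA4.

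In these comparisons no member was called under any alternative, except that 1 (HOXA9) was called in RBMX cells without small RNA genes. In the fit over 6 cultures 1 was called with a pseudocount of 0.1, a minimum of 0.1, no filter or quantile normalization, 0 without the block, and 1 to 2 with a culture left out.

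Over all genes, the calls in total RNA (24) became 62 at a minimum of 0.1 FPKM, 77 with no filter, 13 with the replicate block, 60 with all 12 libraries and 19 to 178 with a library left out. In polysomal RNA (7) they became 14, 31, 3 and 22 in the same order, 2 without small RNA genes and 9 to 126. In control cells (12) they became 6 without small RNA genes, 6 with the block, 41 with all 12 libraries, 12 to 26 with a library left out and 199 without control replicate 3 in both fractions. In RBMX cells (196) they became 61 with no filter, 70 with quantile normalization, 444 without small RNA genes, 4 with the block, 21 with all 12 libraries and 10 to 42. The difference (3) gave 0 without small RNA genes, 5 with the block, 3 to 7 with a library left out and 7 without control replicate 3 in both fractions. The fit over 6 cultures (3512) gave 1310 without the block and 839 to 3117 with a culture left out. Control and RBMX libraries share only a replicate number (correlation of deviations without small RNA genes -0.157 to 0.348), and the block changed no call of a member there. Depth is unknown, and 3 libraries per group limit what could be detected.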
